A study of Mus musculus with 6 samples.

Results

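BV2 cells given the higher of 2 adenine doses for 1 h were compared with untreated BV2 cells on single-colour arrays. The comparison rests on 4 of the 6 arrays of the series, 2 of the higher dose and 2 of the control, chosen by their titles, and covers 17742 named genes. BV2 is an immortal line of mouse microglia and is a single line, so no primary microglia or animals were measured. The titles and the treatment protocol put the higher dose at 80 µM, whereas the characteristics of the same samples state 250 µM. For the lower dose the 2 sources state 20 and 80 µM. The doses are therefore called only lower and higher. All groups had the same growth conditions in the labels, and the controls had 0 µM adenine. The 2 lower-dose arrays entered the normalization and the estimate of the spread, and are cited only where they show whether a change was already present at that dose.

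Microglia are the macrophages of the brain. They express receptors for debris and antibody, make complement proteins, respond to type I interferon and secrete chemokines that attract other leukocytes. Adenine is a purine base which cells take up and which the enzyme encoded by Aprt joins to phosphoribosyl pyrophosphate to give AMP. AMP in turn feeds the adenine nucleotide pool and activates the AMP-dependent kinase AMPK, which restrains the growth kinase complex mTORC1.

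The measurements were background-subtracted fluorescence intensities of 26423 probes per array, with medians of 125 to 170 units as deposited. Between 196 and 315 probes on an array lay under 1 unit and 10 to 39 lay at or above 65000 units. After quantile normalization of all 6 arrays, the 2 higher-dose arrays lay apart from the other 4 on a first principal component with 44.06% of the variance, at 74.62 and 72.38 against −41.33 to −30.36. The number of arrays limits the precision, and the median standard error (SE) of a log2 change was 0.203. Nothing in the labels ties each array to a culture of its own, so the p-values measure the spread between these arrays, which may be technical. Intensities are given below as normalized units for control 1 and 2 and then for higher dose 1 and 2. A change is the log2 difference of group means with its SE (n = 2 per group). It was called at a Benjamini-Hochberg adjusted p under 0.05 in limma over all probes.

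Of the microglia and macrophage markers, 11 of the 12 measured were brighter than the median probe. Aif1, Itgam, Fcer1g and C1qa of them rose, and 0 fell. Their summed deposited intensity was 77437 and 92312 units without adenine and 168506 and 150826 units with the higher dose. Most of that increase came from Cd68, Fcer1g and Trem2. Fcer1g read 15675 and 17703 against 51794 and 43322 deposited units. Cd68, near the ceiling on higher dose 1, read 29446 and 33963 against 65484 and 49989 deposited units, and Trem2 7492 and 11915 against 22542 and 29284, and neither was called (adjusted p = 0.13 and 0.0567 in limma). Csf1r (−0.48), Cd14 (−0.34), Ptprc (−0.14) and Cx3cr1 (−0.13) had negative values and were not called. Tmem119, a marker of microglia in the brain, read 245 and 319 deposited units against 187 and 226 (log2 change −0.49). Markers of other cell types were summed in the same way. The 4 fibroblast markers summed to 112 and 121 units against 133 and 90 units, and the 4 astrocyte markers to 428 and 420 against 423 and 416 units. The summed ranges were 430 to 444 against 492 to 600 units for 3 neuronal markers and 739 to 747 against 925 to 1065 units for 4 lymphocyte markers. They were 1587 to 2195 against 1866 to 2287 units for 4 oligodendrocyte markers and 2491 to 2668 against 1724 to 2154 units for 4 endothelial markers. Of these 23 markers 0 were called in limma, and at an unadjusted p under 0.05 it gave 4 higher and 3 lower. In RNA from a whole culture, fewer cells of a state and less RNA per cell cannot be told apart.

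At the higher dose 1131 named genes rose, 6.37% of those tested, and 956 fell, 5.39%. For all 2087 called genes, both higher-dose arrays lay outside the range of the 2 controls. Over all named genes this held above the controls for 30.1% and below them for 32.9%. The median called rise was 2.32-fold and the median called fall 2.04-fold. A change of at least 2-fold was seen for 848 of the called rises and 521 of the called falls, and of at least 4-fold for 62 and 51. The smallest called changes were 1.58-fold and 1.57-fold. Brighter probes were called more often. In the dimmest 20% of genes by mean intensity 2.09% rose and 2.25% fell, and in the brightest 20% 14.1% rose and 11.9% fell. Of the 10287 genes above the median intensity, 982 rose and 792 fell. Most members of each gene list below lay above it, so the shares over all named genes, 6.37% and 5.39%, are a low background for the lists. The median log2 change over all named genes was −0.02. At the lower dose 3 genes were called, 0.0169%, while 2704 genes, 15.2%, differed between the higher and the lower dose. The count of 2087 depended on having every array: it was 8 without control 1, 3 without control 2, 5 without higher dose 1, 17 without higher dose 2, and 1160 without either lower-dose array. In each of these fits all 2087 genes kept their direction. This had to be so, since both higher-dose arrays of each called gene lay outside the range of the controls.

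**Figure D1:**
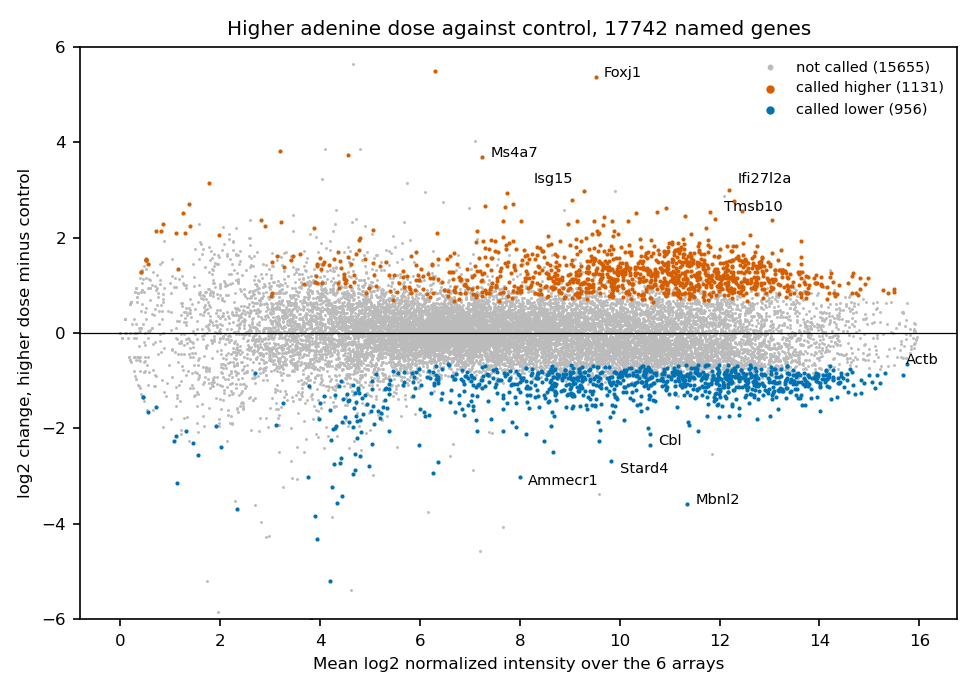
Log2 change at the higher dose against control (vertical axis) plotted against mean log2 normalized intensity over the 6 arrays (horizontal axis), with a point for each named gene. Orange points are the 1131 genes called higher, blue points the 956 called lower and grey points the rest. The 10 genes beyond a log2 change of 6 in size are not drawn. The called genes lie mainly in the brighter part of the plot and on both sides of 0.

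The 25 largest rises among genes above the median intensity ran from 5.06-fold to 41.6-fold. Foxj1, a transcription factor of motile ciliated cells, read 92 and 72 units without adenine, 1453 and 1422 units at the lower dose and 3806 and 3016 units at the higher dose. It was the single gene of the 25 largest rises that was also called at the lower dose. The log2 changes of all 25 at the lower dose ran from −0.44 to 4.14, with a median of 0.16, and all 25 were called between the 2 doses. Ms4a7, a macrophage member of the MS4A family of membrane proteins, read 71 and 55 against 769 and 858 units. Its relative Ms4a6d read 501 and 412 against 2731 and 2213 units, and a second Ms4a6d probe also rose (log2 2.24, adjusted p = 0.0163 in limma). Lst1, expressed in leukocytes, went from 1377 and 1429 to 7819 and 7526 units. The arrays of each group lay close together for these genes. Separate control and higher-dose arrays were a condition for entering the 25.

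Gmfg, a blood-cell regulator of actin branching and another of the 25, read 83.5 and 81.1 against 500 and 547 units (log2 2.67 ± 0.16). Of its other probes, the brighter gave 1.96 (adjusted p = 0.0204 in limma) and the dimmer 0.94 (adjusted p = 0.15). Tmsb10, which binds actin monomers, read 1839 and 2527 against 9840 and 12922 units, while its 2 dimmer probes gave 0.91 (adjusted p = 0.0321 in limma) and 0.85 (adjusted p = 0.111). Igfbp6, a binding protein for insulin-like growth factors, rose from 104 and 111 to 595 and 749 units. The secreted phospholipase gene Pla2g2e rose from 692 and 683 to 3988 and 3860 units, and Nenf, which encodes a secreted neurotrophic protein, from 488 and 507 to 2563 and 2484 units. The carbonyl reductase gene Cbr2 (5.06-fold), Rdm1 (5.08-fold), Tmem171 (5.06-fold) and 2310033P09Rik (5.08-fold) closed the list. Brs3, a bombesin-like receptor, read 96.4 and 106 against 401 and 670 units by its brighter probe, and its other probe gave 0.10. Its rise therefore rests on 1 of 2 probes.

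**Figure D2:**
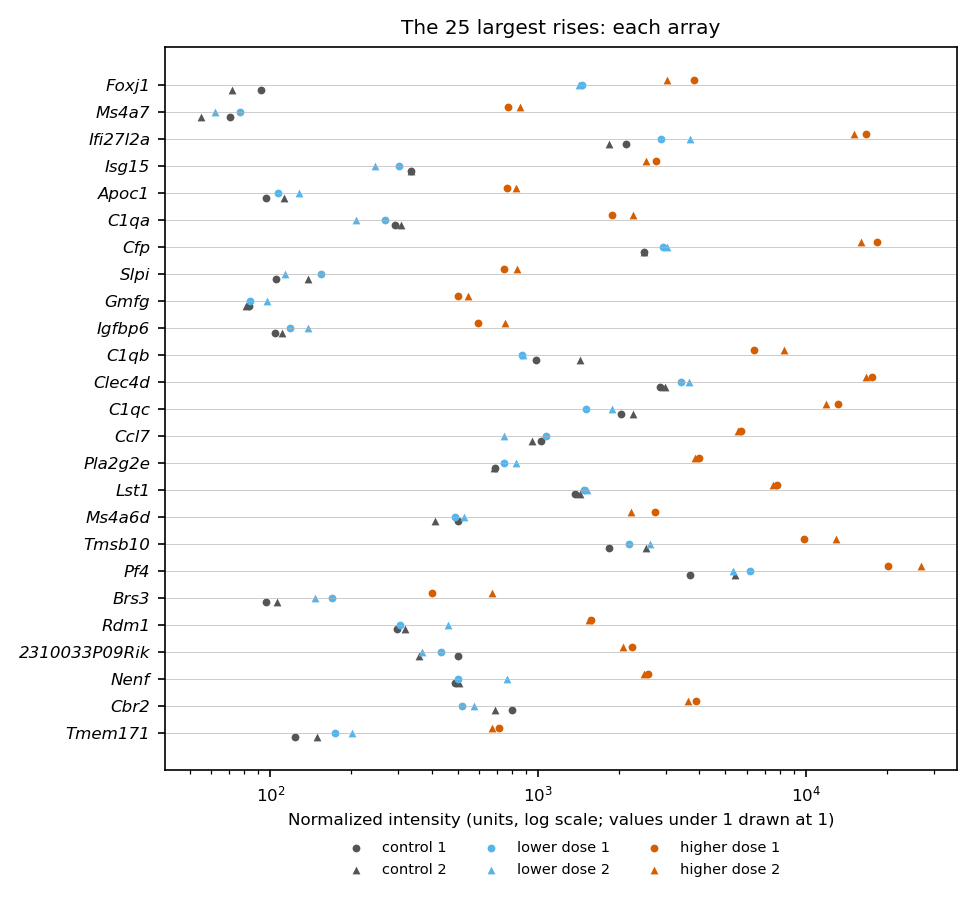
Normalized intensity (log scale, units) of the 25 largest rises on each of the 6 arrays. Grey marks are the controls, light blue the lower dose and orange the higher dose, with circles for replicate 1 and triangles for replicate 2. For every gene shown both orange marks lie to the right of both grey marks, as the choice of genes required. Foxj1 has light blue marks well above the controls.

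Interferon-stimulated genes encode antiviral and signalling proteins that cells make after interferon binds its receptor. Of 34 measured, 11 rose and 0 fell against a background of 6.37% and 5.39%, and 30 had a positive change. Their median log2 change was 0.56, beside −0.02 over all named genes. On the higher-dose arrays the mean shift from the controls was 0.74 and 0.76 over the 33 other than Rsad2, whose median change was 0.54 (Rsad2 was left out after its values were seen). Ifi27l2a, an interferon-induced mitochondrial protein gene, read 2133 and 1831 against 16763 and 15089 units. Isg15, the ubiquitin-like modifier, read 335 and 334 units against 2749 and 2517 units. Bst2, which tethers budding virus to the cell, rose from 9596 and 9151 to 23323 and 22082 units (log2 1.28 ± 0.16), and Irf7, the transcription factor that amplifies interferon production, from 1758 and 2575 to 5708 and 6268 units. Ifit1, a sensor of viral RNA ends, rose from 156 and 156 to 374 and 322 units (2.23-fold, adjusted p = 0.0223 in limma). Other called rises were those of Ifi35 (1.38), Ifitm3 (0.89) and Usp18 (0.87), the protease that removes Isg15 from proteins. Mx1 (10.7 and 15 against 29.3 and 40.7 units) and Ifi44 (16.3 and 21.3 against 56 and 53.8 units) rose at intensities near background. Rsad2 is counted among the 34 but had no usable value, as each group held an array near 0 and an array over 200 units.

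The promoters of Isg15, Cxcl10 and Ifit1 are shown because they hold the core of the interferon-stimulated response element (GAAA, any 2 bases, GAAA), the site bound by interferon-activated transcription factors. Each runs from 250 bases before to 50 after the transcription start in RefSeq (GRCm38.p6), 5′ to 3′ on the gene's strand, and capitals mark the motif on either strand. Isg15 lies on the minus strand at chr4:156200769-156201068 and has 3 overlapping matches. Cxcl10 lies on the minus strand at chr5:92348840-92349139 and has 1. Ifit1 lies on the plus strand at chr19:34640639-34640938 and has 2, both on the opposite strand.
Isg15: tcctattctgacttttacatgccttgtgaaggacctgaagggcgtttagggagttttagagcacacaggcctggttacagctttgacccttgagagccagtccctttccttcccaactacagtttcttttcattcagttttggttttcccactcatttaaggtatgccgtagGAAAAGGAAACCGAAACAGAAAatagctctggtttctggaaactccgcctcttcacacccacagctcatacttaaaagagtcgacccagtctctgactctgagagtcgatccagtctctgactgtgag
Cxcl10: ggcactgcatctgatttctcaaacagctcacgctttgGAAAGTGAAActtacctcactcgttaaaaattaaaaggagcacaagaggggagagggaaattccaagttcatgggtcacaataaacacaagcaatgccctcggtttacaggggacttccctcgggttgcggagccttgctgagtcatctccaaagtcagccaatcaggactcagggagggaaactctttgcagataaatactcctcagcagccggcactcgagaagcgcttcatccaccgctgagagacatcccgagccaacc
Ifit1: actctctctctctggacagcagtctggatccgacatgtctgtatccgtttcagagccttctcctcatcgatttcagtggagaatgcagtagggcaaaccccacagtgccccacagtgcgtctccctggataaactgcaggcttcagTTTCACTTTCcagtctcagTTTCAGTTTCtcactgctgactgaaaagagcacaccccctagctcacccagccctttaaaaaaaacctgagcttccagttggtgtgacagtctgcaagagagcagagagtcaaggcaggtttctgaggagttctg
The motif, searched on both strands, was in 13 of the 26 promoters found for the interferon-stimulated list and in 419 of the 13980 promoters found for all named genes (3.0%). Among list members called higher, 5 of 8 promoters held it: Isg15, Cxcl10, Ifit1, Bst2 and Ifitm3. Ifi35, Ifi44 and Irf7 rose and had no match in this window. Ddx58, Gbp2, Gbp3, Ifih1, Igtp, Oas3 and Stat2 held a match and were not called, and neither was Rsad2, which held one too. Over all genes with a promoter, the motif was in 3.37% of those called higher and 2.86% of those called lower. A match describes these letters and is not evidence of a bound factor.

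The complement genes encode the C1q recognition complex, the alternative pathway and receptors for complement fragments. Of 18 measured, 7 rose (38.9%) and 0 fell, beside 6.37% and 5.39% over all named genes, with a median log2 change of 0.56. The 3 chains of C1q rose together. C1qa read 291 and 308 against 1894 and 2262 units, C1qb 980 and 1435 against 6403 and 8303 units, and C1qc 2046 and 2260 against 13180 and 11845 units. Cfp, which encodes properdin, the stabiliser of the alternative pathway convertase, rose from 2490 and 2486 to 18378 and 15992 units. C3, the central component, rose from 1802 and 1818 to 3933 and 4042 units (log2 1.14 ± 0.15), C3ar1, the receptor for the C3a fragment, by 1.71 ± 0.30, and Itgam, a chain of complement receptor 3, by 0.77 ± 0.16. Their adjusted p in limma lay between 0.0215 and 0.0435. The inhibitor gene Serping1 had the lowest value of the list, 57.6 and 57.5 units against 36.7 and 19.5 units, which did not pass (−1.11, adjusted p = 0.103 in limma).

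Chemokines and cytokines changed unevenly. Of 30 measured, 9 rose (30.0%) and 2 fell (6.67%), beside 6.37% and 5.39% over all named genes, with a median log2 change of 0.40. Ccl7, a monocyte attractant, read 1021 and 946 against 5740 and 5589 units. Ccl2 read 7338 and 9112 against 29080 and 33517 units, and Ccl9 265 and 252 against 1139 and 997 units. Cxcl10, counted in the interferon-stimulated list too, read 149 and 186 against 525 and 728 units. Outside the list, Pf4, a chemokine of platelets and macrophages and among the 25 largest rises, went from 3678 and 5443 to 20184 and 26856 units. Smaller rises were seen for Ccl5 (1.02), Tgfb1 (1.17), Il1a (1.04) and Il18 (0.84). Csf3, the granulocyte colony factor, fell from 239 and 220 to 141 and 132 units (−0.75), and Cxcl3, a neutrophil attractant, from 30.5 and 36.5 to 13.7 and 11.8 units (−1.39), near background. Tnf read 700 and 873 against 997 and 1173 units and Il1b 559 and 538 against 828 and 744 units. Il6 read 41.8 and 22.8 against 69.7 and 71.8 units, and Ptgs2, the inducible cyclooxygenase, 486 and 548 against 290 and 322 units. None of these 4 genes was called, with an adjusted p in limma of 0.364, 0.0894, 0.082 and 0.0967. Their groups did not overlap, but over all named genes 30.1% also lay above and 32.9% below both controls.

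Of 30 phagocytic and Fc receptor genes, 6 rose and 1 fell, with a median of 0.20. These shares, 20.0% and 3.33%, lay beside 6.37% and 5.39% over all named genes. Clec4d, a C-type lectin for microbial glycolipids, rose from 2861 and 2975 to 17588 and 16763 units. The scavenger receptor Marco rose from 127 and 91 to 369 and 362 units. Among antibody receptors Fcgr4 (1.46), Fcgr3 (0.85) and their signalling chain Fcer1g (1.20) rose, as did the paired receptor Pilra (1.56). Mertk, the kinase receptor for apoptotic cells, moved the other way, from 1030 and 970 to 351 and 358 units (−1.5 ± 0.17, adjusted p = 0.0199 in limma). Among 19 antigen presentation genes, 6 rose (31.6%) and 1 fell (5.26%), with a median of 0.28. The immunoproteasome subunits Psmb9 (1.95), Psmb8 (1.54) and Psmb10 (1.17), the proteasome activator Psme1 (1.18) and the class II chain Cd74 rose. Cd74 read 7984 and 8114 against 20943 and 19411 units. The costimulator Cd40 rose (0.81), while Cd86, another costimulator, fell from 8757 and 7046 to 3269 and 2919 units (−1.35 ± 0.18, adjusted p = 0.0215 in limma).

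Genes of lipid-associated microglia, a state described around plaques and myelin debris, held 7 rises (26.9%) and 0 falls among 26 measured. Over all named genes 6.37% rose and 5.39% fell. The list median was 0.53. Apoc1 and Apoc2, which encode apolipoproteins, had the largest rises. Apoc1 read 96.4 and 112 against 768 and 827 units, Apoc2 422 and 556 against 2225 and 2463 units, and Apoe 6866 and 5740 against 21640 and 20218 units (1.74 ± 0.19). The tetraspanin Cd63 (1.94), the galectin Lgals3 (1.07), the cystatin Cst7 (1.02) and Timp2 (0.78) also rose. Trem2, a lipid receptor of this state, read 8522 and 12558 against 19452 and 26780 units and did not pass (1.14 ± 0.26, adjusted p = 0.0567 in limma).

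In sterol handling, 4 of 33 genes rose (12.1%) and 3 fell (9.09%), with a median of −0.17. Over all named genes 6.37% rose and 5.39% fell. Of the 33, 32 lay above the median intensity, where 982 of 10287 genes rose and 792 fell, so the list lay near the background. Npc1 and Lipa, which release and export cholesterol from lysosomes, rose from 473 and 490 to 1478 and 1336 units and from 3663 and 3349 to 9523 and 10727 units. Stard4, a cytosolic sterol carrier, fell from 1728 and 1489 to 260 and 241 units, the arrays of each group lying close together. The synthesis enzyme genes Sqle (−1.26) and Idi1 (−1.06) fell, while the synthesis genes Pmvk (1.14) and Tm7sf2 (0.75) rose.

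Among secreted protease inhibitors and S100 proteins, 9 of 19 rose (47.4%) and 0 fell, with a median of 0.78. Over all named genes 6.37% rose and 5.39% fell. Slpi, an inhibitor of neutrophil elastase, read 105 and 138 against 744 and 833 units. The calcium-binding S100 genes S100a6 (2.09 ± 0.25), S100a13 (1.82 ± 0.14), S100a1 (1.67 ± 0.23) and S100a10 (1.44 ± 0.18) rose, as did the cysteine protease inhibitor Cstb (1.25). In the redox and glutathione list 10 of 41 rose (24.4%) and 2 fell (4.88%), with a median of 0.55. Most rises were of enzymes that use glutathione or peroxide, among them Gstp1, from 5821 and 5404 to 15739 and 14797 units, Mgst1 (1.42), Mgst2 (1.52), Mgst3 (1.49), Gpx4 (1.05) and Prdx4 (0.99), and of the biliverdin reductase Blvrb (1.77). The 2 falls were of genes that make or restore glutathione. Gclc, the catalytic chain of the rate-limiting synthesis enzyme, fell from 1904 and 2253 to 633 and 764 units (−1.57 ± 0.20), and glutathione reductase, Gsr, from 1803 and 1994 to 854 and 1047 units (−1 ± 0.18).

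Of the 33 lists, oxidative phosphorylation (64.4%), mitochondrial translation (62.5%) and cytosolic ribosomal proteins (56.8%) held the largest shares of rises, beside 6.37% over all named genes. In oxidative phosphorylation, the respiratory chain and ATP synthase, 38 of 59 nuclear genes rose and 2 fell, with a median log2 change of 1.15. Small accessory subunits of complex I rose, such as Ndufa7, from 1825 and 2014 to 6503 and 7658 units, and Ndufb7, from 3995 and 4120 to 14328 and 14492 units. So did Ndufs3 (1.25), Ndufs7 (1.19) and Ndufs8 (0.97) of the same complex. The complex III subunit Uqcr11 rose from 1315 and 1482 to 5051 and 4699 units, and the ATP synthase epsilon subunit Atp5e from 3561 and 4286 to 12850 and 12677 units. The 2 falls were of Ndufs1 and Sdha. Ndufs1, the iron-sulfur subunit of complex I, fell from 7912 and 9493 to 3797 and 4504 units (−1.07 ± 0.19), and Sdha, the flavoprotein of complex II, from 15314 and 12861 to 8114 and 6439 units (−0.96 ± 0.19). Neither fall was called on the values as deposited (adjusted p = 0.0549 and 0.0953 in limma).

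In mitochondrial translation 25 of 40 rose and 1 fell (median 0.94). All 25 rises were of mitochondrial ribosomal proteins, such as Mrpl52, from 3437 and 2972 to 10990 and 10300 units, and Mrpl54, from 1495 and 1294 to 4942 and 4400 units. The brighter Mrpl51 probe gave 1.43 and its other probe 0.41. The fall was of Gfm1, the elongation factor, from 9738 and 12464 to 2752 and 3627 units (−1.80 ± 0.27). In mitochondrial import 8 of 25 rose (32.0%) and 1 fell (4.0%), beside 6.37% and 5.39% over all named genes (median 0.53). The small intermembrane chaperones Timm10b (1.61), Timm8b (1.53), Timm10 (1.29) and Timm13 (1.16) rose. The rises were not confined to them: Dnajc19 had the largest of the list (1.99), and Hspe1 rose by 1.13. The fall was of Hspa9, the matrix motor chaperone, from 40014 and 47941 to 18918 and 20514 units (−1.15 ± 0.16). Of 37 cytosolic ribosomal protein genes measured among 81 listed, 21 rose and 0 fell, with a median of 0.91. Rpl38 rose from 1425 and 1631 to 5035 and 6178 units, Rpl35a from 330 and 377 to 1104 and 1358 units, and Rps29 from 98.5 and 106 to 268 and 358 units. Ribosomal protein genes have many processed pseudogenes, and whether a probe also reads them was not tested.

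In the proteasome 6 of 38 rose and 3 fell (median 0.27). These shares, 15.8% and 7.89%, lay beside 6.37% and 5.39% over all named genes. The assembly factors Pomp, from 3783 and 4514 to 11178 and 11522 units, Psmg4 (1.47) and Psmg3 (1.01) rose, with the core subunits Psmb5 (1.00), Psma7 (0.87) and Psmb7 (0.84). The cap subunits Psmd1, from 38386 and 38047 to 17035 and 15248 units, and Psmd2 (−0.89), fell, as did the activator Psme4 (−0.84). Among 47 heat shock proteins and chaperones, 6 rose (12.8%) and 5 fell (10.6%), with a median of −0.32. Of the 47, 46 lay above the median intensity, where 982 of 10287 genes rose and 792 fell, so the list lay near the background. The prefoldin subunits Pfdn5 (1.28), Pfdn4 (1.27), Pfdn2 (1.11) and Pfdn1 (1.09) rose, while Cct3 (−0.82) and Tcp1 (−0.76) of the chaperonin they serve fell. Neither of these falls was called on the values as deposited (adjusted p = 0.131 and 0.0591 in limma). Cct6a, of the same chaperonin, was also called lower, but its controls, at 64838 and 61516 units, were near the ceiling of the scanner, so no size is given. With arrays as deposited the chaperone list had 6 rises and 1 fall.

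In the integrated stress and unfolded protein responses, 2 of 34 rose and 5 fell, with a median of −0.41. These shares, 5.88% and 14.7%, lay beside 6.37% and 5.39% over all named genes. The folding enzyme Pdia4 fell from 4182 and 4052 to 1073 and 1095 units (−1.92 ± 0.14), and Eif2s1, the translation factor whose phosphorylation sets off the integrated stress response, from 497 and 682 to 168 and 178 units. Hspa5, the chaperone of the endoplasmic reticulum, fell by 0.83 and the transcription factor Xbp1 by 0.87, and neither was called on the values as deposited (adjusted p = 0.149 and 0.157 in limma). Ddit3, a late transcription factor of the response, rose from 1533 and 1517 to 3261 and 3103 units (1.06 ± 0.15), and Sel1l, of the degradation machinery, from 643 and 650 to 1990 and 1850 units (1.57 ± 0.14).

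The 25 largest falls among genes above the median intensity were each at least 3.38-fold. All 25 were called against the lower dose as well, and 0 were called at the lower dose, where their changes ran from −0.64 to 0.41. Ammecr1 read 600 and 471 against 75.7 and 57.7 units. Rcor1, a corepressor scaffold, read 668 and 731 against 120 and 130 units, and Cbl, a ubiquitin ligase for receptor kinases, 3039 and 2534 against 584 and 513 units. Opa1, the GTPase that fuses inner mitochondrial membranes, fell from 684 and 544 to 164 and 153 units. Wasf2, which drives actin branching at the cell edge, fell from 3007 and 2284 to 610 and 702 units. The acyltransferases Gpam (365 and 310 against 69.7 and 93.8 units) and Lpcat1 (1114 and 1426 against 252 and 376 units), which make phospholipid precursors and phosphatidylcholine, also fell. Slc25a36, a mitochondrial nucleotide carrier, fell from 1762 and 1560 to 518 and 422 units.

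Further falls were of Mef2c, a transcription factor of microglia, from 4542 and 3755 to 1198 and 1069 units, with −0.68 at its other probe (adjusted p = 0.0974 in limma). Matr3, a nuclear RNA-binding protein, fell by both of its probes (−1.76, and −1.32 at the dimmer one). Fip1l1 of the polyadenylation machinery (335 and 328 against 83.7 and 100 units), the ribosome assembly factor Wdr12 (372 and 354 against 84.4 and 100 units) and the kinase Taok3 (1013 and 1122 against 265 and 320 units) followed. Rnf6, a ubiquitin ligase, fell from 5215 and 4428 to 1272 and 1056 units, and Lancl2 from 1333 and 1258 to 395 and 370 units. Dnajb14, a membrane co-chaperone, read 646 and 701 against 154 and 128 units, and 5031439G07Rik 424 and 594 against 95.2 and 140 units. For each of these genes both higher-dose arrays lay below both controls.

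**Figure D3:**
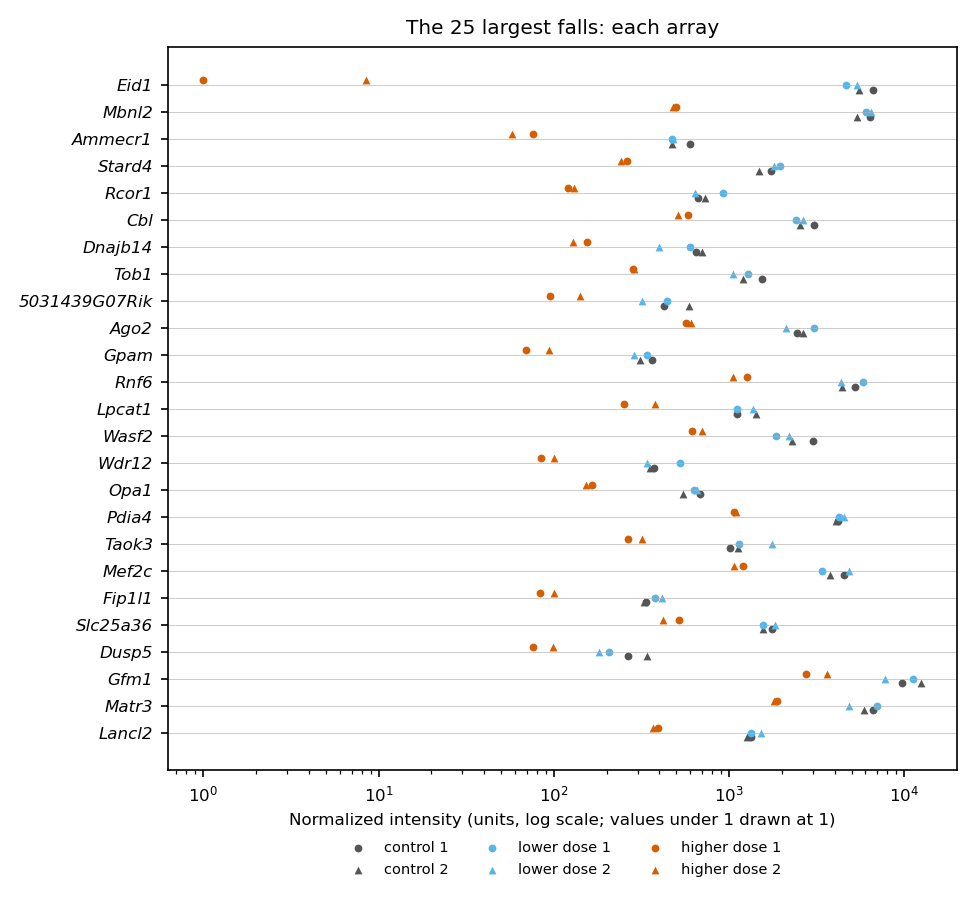
Normalized intensity (log scale, units, values under 1 drawn at 1) of the 25 largest falls on each of the 6 arrays. Grey marks are the controls, light blue the lower dose and orange the higher dose, with circles for replicate 1 and triangles for replicate 2. Both orange marks lie to the left of the other 4 for every gene shown, and Eid1 reaches background. Their place to the left of both grey marks was required by the choice of genes.

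Of 50 splicing factors, 11 rose (22.0%) and 12 fell (24.0%), beside 6.37% and 5.39% over all named genes, with a median of −0.46. The rises included the Sm proteins Snrpd2, from 4384 and 4585 to 14432 and 12558 units, Snrpf (1.20), Snrpe (1.00), Snrpd1 (0.84) and Snrpd3 (0.80), the Sm-like proteins Lsm3 (1.22) and Lsm2 (1.01), the U1 protein Snrpc (1.00), the U2 proteins Sf3b5 (0.94) and Sf3a2 (0.78), and U2af2 (0.91). The serine-arginine proteins Srsf3, from 2562 and 2118 to 1078 and 1040 units, Srsf7 (−1.42), Srsf2 (−0.94), Srsf11 (−0.87) and Srsf6 (−0.76) fell, with Celf1 (−1.27), Mbnl1 (−1.02), Hnrnpm (−0.96), Ptbp3 (−0.94), Hnrnph1 (−0.93) and Tra2b (−0.75). The list was not fixed as separate classes, and this grouping of its members was made after their values were seen. On the values as deposited, 11 rises and 4 falls were called, and with arrays scaled to equal medians 10 and 7. The other Srsf7 probe was at background on every array. Mbnl2 fell from 6351 and 5359 to 500 and 478 units by its brighter probe and read −0.47 by the other, so its size rests on 1 of 2 probes.

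In mRNA decay, 4 of 35 rose and 8 fell (median −0.28). These shares, 11.4% and 22.9%, lay beside 6.37% and 5.39% over all named genes. The falls included genes that act at the poly(A) tail or with microRNAs. Tob1, an adaptor of deadenylation, read 1534 and 1199 against 282 and 285 units, and the deadenylases Parn 5660 and 5038 against 1736 and 1479 units and Pan2 950 and 900 against 446 and 480 units. Ago2, the nuclease of microRNA silencing, fell from 2426 and 2637 to 569 and 608 units (−2.11 ± 0.22) by its brightest probe. Its 2 other probes gave −0.77 (adjusted p = 0.0635 in limma) and −0.35 (adjusted p = 0.313). The RNA-binding proteins Elavl1 (−1.35) and Pum2 (−1.14) also fell. The exosome subunits Exosc5 (1.08) and Exosc3 (0.94) and Zfp36 (1.08), which binds AU-rich cytokine mRNA, rose.

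No chromatin modifier or ubiquitin ligase of the lists was called higher in limma. Of 48 chromatin modifiers, 10 fell (20.8%) and 0 rose, beside 5.39% and 6.37% over all named genes (median −0.41). Besides Rcor1 they included the remodeller Smarca5, from 6187 and 5897 to 2144 and 2043 units, the Polycomb subunits Suz12 (−1.3) and Ezh2 (−0.78), and the histone demethylases Kdm6a (−1) and Kdm1a (−0.97), the partner of Rcor1. Of 46 ubiquitin ligases and adaptors, 9 fell (19.6%) and 0 rose (median −0.42). Fbxw7, which marks cyclin E for degradation, fell from 568 and 626 to 223 and 292 units, and the Nedd4-family ligase Itch by 0.95. The apoptosis inhibitors Birc2 (−0.78) and Birc3 (−0.93) fell. Birc6 (−1.53) read 0.20 at its other probe, and Fbxl5 (−1.27) had other probes at −0.79, which was called, and 0.11. Of 37 genes listed as deubiquitinases, 1 rose (2.7%) and 4 fell (10.8%), with a median of −0.46. The shares over all named genes were 6.37% and 5.39%. The falls were of Usp14 (−1.06), Usp9x (−0.98), Otud1 (−0.94) and the gene named next. Usp6nl (−0.76), the remaining fall, is named for its likeness to a deubiquitinase but acts on Rab proteins.

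Cell cycle and DNA replication genes held 13 falls (28.9%) and 1 rise (2.22%) among 45, with a median of −0.47. Over all named genes 5.39% fell and 6.37% rose. Most of the falls were of genes of DNA replication and entry into S phase. The helicase subunits Mcm3 (−1.09), Mcm4 (−1.06), Mcm5 (−1.02), Mcm6 (−0.94) and Mcm7 (−0.88) fell together, Mcm5 from 16449 and 16141 to 7998 and 8123 units. On the values as deposited 0 of these 5 were called in limma (adjusted p from 0.0553 to 0.0877), and the list had 3 falls and 1 rise. The loading factors Cdt1 (−0.91) and Orc1 (−0.88) and the kinase Cdk2 (−1.23) fell, and a second Cdk2 probe gave −1.54. The cyclin Ccne2 fell by its brighter probe (−1.36) but not by its other probe (−0.14). The rise was of Cdkn1a, the kinase inhibitor p21, from 4601 and 3988 to 8144 and 7310 units (0.85 ± 0.16, adjusted p = 0.0384 in limma).

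Histone genes went up in part, with 5 of 14 called higher and 0 lower (median 0.37), among them H2ac18, from 1552 and 1486 to 4888 and 4297 units, H2ac4 (1.55) and the damage-linked variant H2ax (1.17). The 5 rises were 35.7% of the list. Histone genes are near-identical copies, and the array may not separate them. Among 35 p53 and apoptosis genes, 6 rose (17.1%) and 2 fell (5.71%), beside 6.37% and 5.39% over all named genes. The list median of 0.06 changed sign in 4 of 15 alternatives. The pore-forming Bak1 rose from 2591 and 2614 to 6514 and 6875 units, while Pmaip1, another pro-apoptotic Bcl-2 family gene known as Noxa, fell from 6440 and 6760 to 2078 and 1844 units (−1.75 ± 0.16).

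For the pathway that handles adenine, 4 of 33 purine genes rose and 6 fell (median −0.27). These shares, 12.1% and 18.2%, lay beside 6.37% and 5.39% over all named genes. Aprt, which salvages adenine, read 15364 and 13893 against 27961 and 29190 units (0.97 ± 0.19, adjusted p = 0.0392 in limma). Nt5c (1.49) and Nt5e (1.07), nucleotidases that take phosphate from monophosphates, and the guanylate kinase Guk1 (1.00) rose. Genes of synthesis and interconversion fell. They were Adss, from 8620 and 7206 to 3306 and 3080 units, which starts the conversion of IMP to AMP, Ppat (−0.83), the committed step of purine synthesis, and the AMP deaminase Ampd2 (−0.66). Also lower were Mtap (−0.82), which yields adenine from the polyamine pathway, the kinase Ak3 (−0.88), and Slc43a3, a purine base transporter, from 13387 and 13855 to 5648 and 6544 units. Hprt read 33271 and 27961 against 37061 and 33002 units, Ada, adenosine deaminase, 174 and 220 against 381 and 528 units, and Adk, adenosine kinase, 11702 and 11807 against 8133 and 8192 units. Their adjusted p in limma was 0.501, 0.0756 and 0.0872.

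Of 34 AMPK and mTOR genes, 3 rose and 0 fell, and the median was −0.18. With arrays scaled to equal medians 2 rose and 3 fell, so the split depended on the scaling. Both higher-dose arrays lay below both controls for 18 of the 34 and above them for 5, beside 32.9% and 30.1% of all named genes. The share of rises was 8.82%, beside 6.37% rises and 5.39% falls over all named genes. Of the 34, 28 lay above the median intensity, where 982 of 10287 genes rose, so the rises lay near the background. Lamtor2, of the lysosomal anchor of mTORC1, rose from 5634 and 4255 to 13327 and 12081 units, and Eif4ebp1, a translation repressor that mTORC1 inactivates, from 5199 and 4910 to 12692 and 12430 units. Prkaa2, an AMPK catalytic chain, rose at 16.3 and 16.3 against 36.7 and 35 units, near background, and was called neither on the values as deposited (adjusted p = 0.139 in limma) nor with equal medians (0.0807). The stress sensor Sesn1 read 4829 and 3923 against 2426 and 2133 units (−0.94, adjusted p = 0.0517 in limma). Of 50 MAPK and Ras genes, 2 rose and 8 fell (median −0.27). The small GTPases Hras (1.20) and Rras (0.90) rose, and Rras2 (−1.01), the kinases Mapk8 (−0.94) and Rps6ka1 (−0.98), the adaptor Grb2 (−0.81) and Dusp5, the ERK phosphatase (266 and 340 against 75.7 and 98.2 units), fell.

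In the Toll-like receptor and NF-κB list 1 of 43 rose and 3 fell (median −0.10), shares of 2.33% and 6.98% beside 6.37% and 5.39% over all named genes, so this list lay near the background. Nfkbia, the inhibitor of NF-κB, rose from 2901 and 3311 to 6292 and 6044 units, while the receptor Tlr2 (−0.98), the kinase Tbk1 (−0.78) and Tab2 (−0.99), an adaptor of the kinase TAK1, fell. Of 41 cAMP and immediate early genes, 0 rose and 4 fell (9.76%), with a median of −0.14. The falls included the orphan nuclear receptors Nr4a1, from 4104 and 5172 to 1961 and 2070 units, and Nr4a2 (−1.57, with −0.63 at its other probe).

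Among 47 actin and adhesion genes, 2 rose (4.26%) and 8 fell (17.0%), with a median of −0.17. For this and the next lists, the shares over all named genes were 6.37% and 5.39%. Tmsb10 and Rhoc (1.04) rose. The branching and capping genes Actr3 (−1.10), Capza2 (−0.98) and Wasf2, the regulator Cdc42, from 14286 and 13139 to 6492 and 7079 units, and the integrin Itga6 (−1.35) fell. Actb read 63410 and 65484 against 55330 and 55330 units, near the ceiling in the controls (−0.22, adjusted p = 0.373 in limma). Of 36 Rab GTPases, 5 rose (13.9%), among them the recycling GTPases Rab4b (1.34) and Rab4a (0.87), and 0 fell. The list median of 0.06 changed sign in 4 of 15 alternatives. Rab11a (0.98) had −0.72 at its other probe. Of 51 lysosome and autophagy genes, 6 rose (11.8%) and 3 fell (5.88%), with a median of −0.08 whose sign changed in 2 of 15 alternatives. All 51 lay above the median intensity, where 982 of 10287 genes rose and 792 fell, so this list lay near the background. The rises included Gabarap (1.19), Map1lc3a (1.3) and the proton pump subunit Atp6v0b (1.28). The falls were of Glb1 (−1.11), Optn (−1.10) and Ulk2 (−0.81). Of 28 glycolysis and pentose phosphate genes, 0 rose and 4 fell (14.3%), with a median of −0.21. They were Hk2, from 14862 and 13018 to 6750 and 5643 units, Pfkm (−1.17), Pdk1 (−1.59) and the oxygen sensor Egln1 (−1.10).

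Where a list held 0 calls in a direction, limma at an unadjusted p under 0.05 still gave members in that direction. Falls by that measure numbered 2 for complement, 1 each for the interferon-stimulated, lipid-associated, protease inhibitor and histone lists, 2 for cytosolic ribosomal proteins, 8 for AMPK and mTOR and 4 for Rab GTPases. Rises numbered 3 for chromatin modifiers, 1 for ubiquitin ligases, 7 for cAMP and immediate early genes and 3 for glycolysis. Over all named genes 2609 rises and 2920 falls passed it.

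Calls on list members depended in part on the scaling of the arrays. Of the 340 members called, 221 higher and 119 lower, 30 rises and 56 falls were not called on the values as deposited (adjusted p from 0.0502 to 0.249 in limma), and 19 rises and 26 falls were not called with arrays scaled to equal medians (0.0506 to 0.195). In both, 0 of the members lost changed sign. On the values as deposited the lost rises included Mx1, Ifitm3, Usp18, Itgam, Tgfb1, Il1a, Il18, Cd40, Lgals3, Timp2, Tm7sf2, Sf3a2, Psmg3, Zfp36, H2ax, Nt5e, Rras and Rab4a. The lost falls included Csf3, Hspa9, Psmd2, Srsf2, Srsf6, Srsf11, Hnrnpm, Hnrnph1, Ptbp3, Tra2b, Mbnl1, Elavl1, Suz12, Ezh2, Birc2, Usp14, Cdt1, Orc1, Ampd2, Mtap, Ak3, Mapk8, Rps6ka1, Grb2, Tbk1, Actr3, Capza2 and Ulk2. Cst7, Pfdn1, U2af2 and Slc43a3 were lost with equal medians and not on the values as deposited. Oxidative phosphorylation had 40 rises and 0 falls on the values as deposited, mitochondrial translation 25 and 1, complement 6 and 0, the interferon-stimulated list 8 and 0, chromatin modifiers 0 and 6, and MAPK and Ras 1 and 3.

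**Figure D4:**
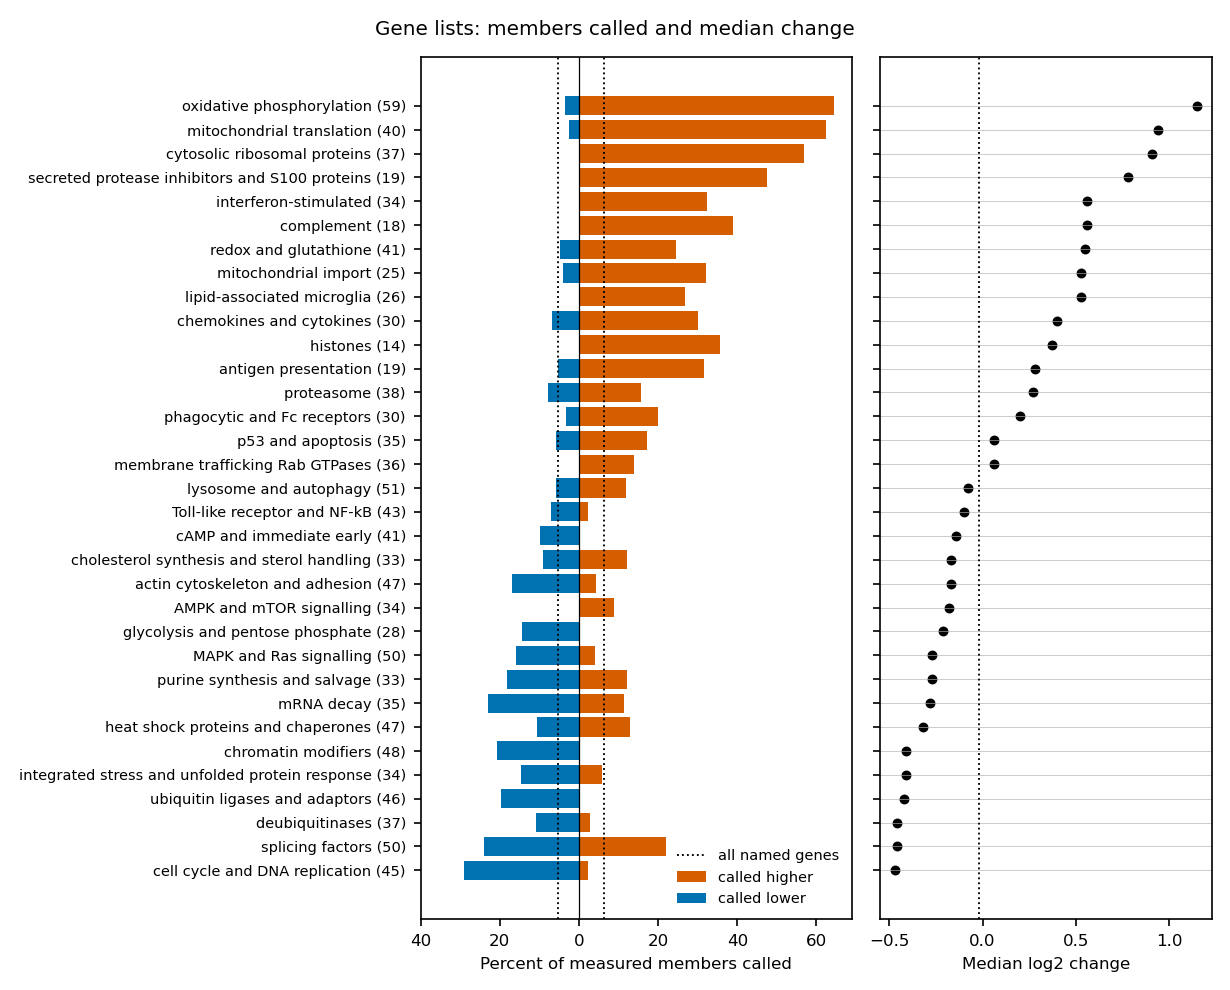
Left, the percent of measured members called higher (orange, to the right) and called lower (blue, to the left) in each of the 33 gene lists, with the number measured in brackets and dotted lines at the shares over all named genes, 6.37% and 5.39%. Right, the median log2 change of each list, higher dose minus control, with a dotted line at −0.02, the median of all named genes. Oxidative phosphorylation (1.15), mitochondrial translation and cytosolic ribosomal proteins lie at the top, and cell cycle and DNA replication (−0.47) at the bottom.

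The changes ran with gene span, the distance from the start to the end of a gene in the RefSeq annotation. Genes called higher had a median span of 8.82 kb and genes called lower 31.2 kb, beside 19.3 kb over all. Of the 3542 shortest genes, 20% of all, with a median of 2.51 kb, 390 (11%) rose and 2.17% fell. Of those from 27.3 to 62.6 kb, with a median of 39.8 kb, 3.42% rose and 8.64% fell. Of the longest, with a median of 116 kb, 2.23% rose and 6.78% fell, so the share of falls did not go on rising with span. The 25 largest rises had a median span of 4.91 kb, 20 of them under 10 kb, and the 25 largest falls 48.9 kb, 2 of them under 10 kb. The split at 10 kb was chosen after the values were seen.

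In 30 of the 33 lists the median was higher for members under 10 kb than for longer ones. In 3 of the 33, chromatin modifiers, cytosolic ribosomal proteins and histones, a side held 1 gene, and over the 28 lists with at least 5 members on both sides it was higher in 26. For splicing factors the median was 0.81 over 16 genes under 10 kb and −0.56 over 34 longer genes. It was 0.97 over 5 and −0.36 over 28 purine genes, 0.67 over 14 and −0.11 over 11 mitochondrial import genes, and 0.45 over 11 and −0.37 over 39 MAPK and Ras genes. Oxidative phosphorylation was positive on both sides (1.19 over 39 and 0.70 over 20), as was mitochondrial translation (0.96 over 31 and 0.82 over 9). Cell cycle and DNA replication was negative on both sides (−0.50 over 11 and −0.42 over 34). After each array's trend with span was removed, 1018 genes rose and 743 fell. Oxidative phosphorylation then had 35 rises and 1 fall with a median of 1.06, mitochondrial translation 17 and 1 with 0.80, and cytosolic ribosomal proteins 15 and 0 with 0.75. Complement kept all 7 of its rises (7 called in both fits), the interferon-stimulated list had 10, chromatin modifiers 5 falls, and MAPK and Ras 1 rise and 2 falls. All 25 largest rises and all 25 largest falls were still called.

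**Figure D5:**
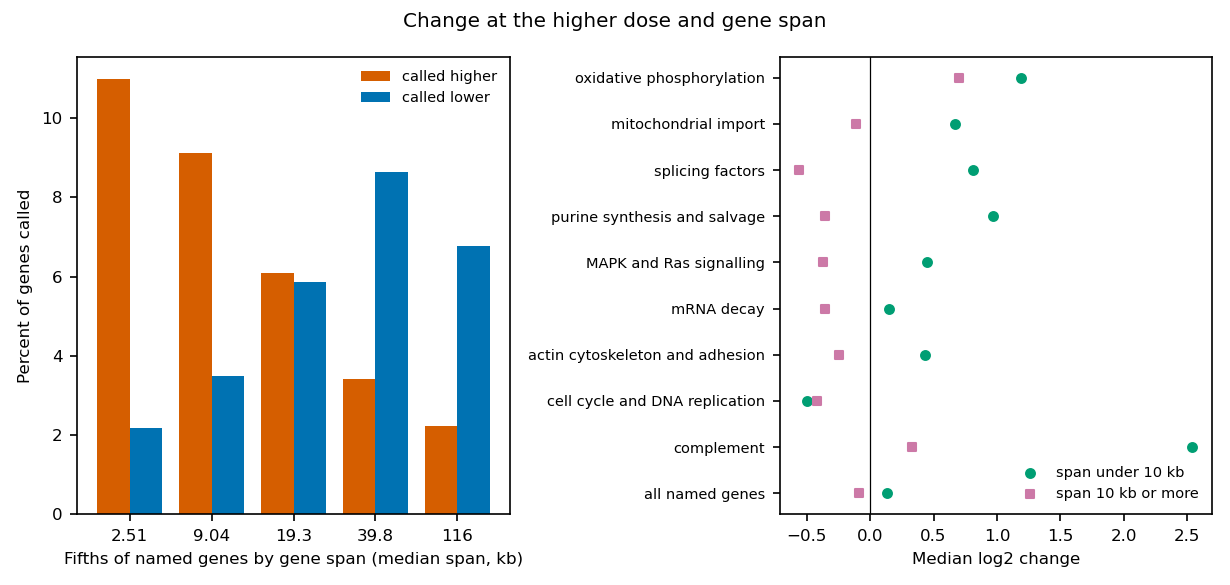
Left, the percent of named genes called higher (orange) and lower (blue) in 5 equal bins of genes by span, labelled with the median span in kb. Right, the median log2 change of list members with a span under 10 kb (green circles) and of 10 kb or more (purple squares). The share of rises goes from 11% in the shortest to 2.23% in the longest bin, and the splicing list goes from 0.81 for short to −0.56 for long members.

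Promoter composition differed with direction as well. Over the 13980 promoters found, the median count of CpG dinucleotides in 300 bases was 16. Among genes above the median intensity it was 20, with 18 for those called higher and 24 for those called lower. Of the promoters found for the 25 largest rises, 2 of 15 held at least 10 CpG, and of those for the 25 largest falls 18 of 20. The share was 79.6% over all brighter genes, 78.1% for brighter genes called higher and 89.1% for those called lower, so the low count of the 25 was not shared by the called rises as a whole. The ETS core CGGAAG was in 32.0% of promoters of brighter genes, 34.1% of those called higher and 37.9% of those called lower. The gamma-activated site TTCNNNGAA was in 6.73%, 7.06% and 7.32%, the cAMP element TGACGTCA in 3.13%, 3.22% and 3.89%, the CCAAT box in 38.8%, 38.3% and 38.9%, and TATAAA in 7.96%, 9.29% and 5.61% of the same 3 sets. All motifs were searched on both strands and may overlap.

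Probes to the same gene share arrays and sample, so they check the probe and not the culture. For 167 genes called higher with more than 1 probe, 131 of 197 other probes had the same sign (66.5%), and 89 of 118 did among those above the median intensity (75.4%). For 158 genes called lower, 146 of 181 other probes had the same sign (80.7%). For genes not called the share was 59.6% (1346 of 2257), and 70.2% among those above the median intensity (596 of 849), so the share for called rises lay a little above that of genes not called. Of the other probes, 54 were called higher and 5 lower for the first set, and 47 lower and 2 higher for the second.

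A few probes switched between background and signal. Pacs1 read 1 and 0 against 421 and 410 deposited units (adjusted p = 0.00362 in limma), and had no lower-dose signal (2 and −1 units). Tti1, an assembly factor of mTOR-family kinases, read 1552 and 1464 against −6 and −8 units (adjusted p = 0.000606). Eid1 read 5920 and 5411 against −2 and 8 units, while its other probe read 62 to 89 units over the 6 arrays and gave 0.14. Lig3, a DNA ligase, read 2810 and 2422 against 1 and −1 units, but lower dose 1 also read near background, at 4 units against 3019, and it was not called (adjusted p = 0.0767). Crot, a peroxisomal carnitine acyltransferase named here after its values were seen, read 6 and 18 against 1370 and 1131 units (adjusted p = 0.0163 in limma), with 9 and 17 units at the lower dose. No fold is given where a group lies at the floor. Both higher-dose values of Tti1 were set to the same floor, so the fit saw no spread between them. Control 2 of Pacs1 was set to it as well, close to control 1. The adjusted p of both genes therefore depends in part on the floor. Loss of a probe on a single array of a group also occurred: of all probes, 9 in the controls, 12 at the lower dose and 8 at the higher dose read under 10 units on an array and over 200 on its replicate. Over named genes these counts were 4, 7 and 5. Under the same limits 1 named gene switched on at the higher dose and 3 switched off.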

How the data were processed

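Per the labels' protocols, Cy5-labelled cDNA from BV2 RNA was read on single-colour Phalanx mouse OneArray slides. Each deposited value is a linear intensity per probe. The submitters' processing notes name RMA, which gives log values with equal distributions, whereas the deposited intensity values are linear with unequal medians, so the arrays were quantile-normalized here, all 6 together. The background method, spot averaging, slide and scan batch are not stated in the labels or files used. Values under 1 were set to 1 and log2 was taken of the deposited intensity after normalization. A model with a mean per group (3 groups) was fitted with lmFit and eBayes of limma 3.58.1 in R 4.3.3, two-sided, with 3 residual degrees of freedom and Benjamini-Hochberg adjustment over 26423 probes.

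Platform symbols named 20377 probes (0 with several symbols, 6046 unnamed here). RefSeq GRCm38.p6 symbols matched 18213 exactly and 2126 by a unique synonym, and 38 were kept as given. The brightest probe on average stood for a gene. Genes with no promoter or span entry were left out of those counts. Protein lengths were not used here, and Nos2, which was to be reported in any case, is not named among the probes used here.

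The comparison, the 33 gene lists and the tests were chosen with earlier results of these data known. Genes were named by rule: the 25 largest called rises and falls above the median intensity with separate arrays, the 4 members of smallest p in each list, probes that switch between under 10 and over 200 units, and a fixed set. Not every list member picked by this rule is described: Ccna2, Bik, Hspb11, Dnajc15, Ftl1 and Ier5 are among those left out. Further list members were named after their values were seen. The fit to 26423 probes was also run on simulated data, and the outcome is not given here. Plots used matplotlib 3.10.9 on Python 3.11.15. Alternatives tried are in the closing section.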

Additional observations from a re-analysis of the deposited data

How the results depend on the processing

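Of the 2087 called genes, all that were tested kept their direction in every refit except that on the average over a gene's probes, where 2076 did (99.5%). A direction could turn only where the values were changed, as by the scaling, the span trend or the average over probes. In the other refits the separate arrays of each called gene fixed it. The count was 2087 (1131 higher, 956 lower). It was 1574 on values as deposited (941 and 633), 2335 with arrays scaled to equal medians (1079 and 1256), so that falls then outnumbered rises, and 3550 with log2(value + 16) (1732 and 1818). It was 4289 with tests limited to probes brighter than the median (1967 and 2322), 3808 with a trended prior (1792 and 2016) and 2822 with array weights (1464 and 1358). Removing the trend with gene span gave 1761 (1018 and 743), and the average over probes 2715 (1360 and 1355). A fit to the 4 arrays compared called 1160 (733 and 427), as did fits without either lower-dose array, since a lone array adds no spread. Leaving out an array in turn gave 3 to 1160 genes, 1 to 733 higher and 2 to 427 lower, where the lone array of a group was assumed to vary like the others. At an adjusted p of 0.01, 8 passed (3 and 5), and at 0.1, 3833 (1882 and 1951). With the replicate number as a block 7 genes passed (3 higher and 4 lower). The labels do not say whether arrays of the same number share a batch. Deviations of same-numbered arrays correlated at 0.313 between control and higher dose, 0.0326 between control and lower dose and −0.226 between the doses. Of the 33 list medians, 30 kept their sign in all 15 alternatives. Some of these, such as the trended prior and the replicate block, leave every log2 change as it was and could not turn a sign. The lysosome median ran from −0.13 to 0.15, the Rab median from −0.11 to 0.16 and the p53 median from −0.08 to 0.18. Signal over background limits the dimmest 20% of genes most, where the median SE was 0.4, against 0.182 in the brightest 20%.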
